A study of Mus musculus with 16 samples.

Results

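Clustered protocadherins are cell adhesion molecules of the cadherin superfamily, and their genes lie side by side on mouse chromosome 18 as an alpha, a beta and a gamma cluster. The genes whose symbol is Pcdha, Pcdhb, Pcdhga, Pcdhgb, Pcdhgc or Pcdhac followed by a number were taken, and 24 of the 50600 genes in the count tables met this rule. They comprised all 22 genes of the beta cluster, Pcdhb1 to Pcdhb22, which spans 37264998 to 37521419 of chromosome 18 (GRCm38), and 1 identifier each under the symbols Pcdha11 and Pcdhgc5. RefSeq lists 58 genes of the family, of which 14 are alpha, 22 beta and 22 gamma, and the other alpha and gamma genes were not analysed here because the name tables used gave no symbol for them. The values therefore describe the beta cluster, and the other 2 identifiers are given apart.

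Allele-specific RNA-seq was available for 12 clones of hybrid mouse cells, in 16 libraries. The maternal genome was 129/Sv and the paternal one Cast/EiJ, here Cast. Neural progenitor cells (NPCs) had been differentiated from male or female hybrid embryonic stem cells and cloned, and astrocytes were obtained from NPC clones in N2B27 medium with FGF2 and BMP4. Poly(A)-enriched RNA was sequenced in 1 library each of 5 astrocyte clones (129, C2 and G4, female, and mC3 and mE6, male) and of 3 NPC clones (F5, female, and mG2 and mG6, male). The NPC clones Ch3, Ch5, Ch7 and Ch8, all male, had 2 libraries each after depletion of ribosomal RNA. Each clone is a separate line grown from 1 cell, the astrocyte and the NPC clones carry different names, so a difference between cell types is also one between clones, and preparation and clone set cannot be told apart between the Ch clones and the others. A level is given in CPM, the counts of a gene scaled to a library total of 1000000 counted reads, and the allelic ratio as percent Cast, the Cast share of the reads assigned to an allele, for at least 20 such reads.

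In neurons, a cell draws a limited set of clustered protocadherins from the many promoters of the clusters, largely at random and separately on its 2 chromosomes, and the proteins bind others of their own kind across cell contacts. This is known for giving each neuron its own surface label, by which its branches recognise and avoid each other. Alpha and gamma genes splice a variable first exon to exons shared by their cluster, whereas a beta gene is a coding unit of its own, and 20 of the 22 Pcdhb genes had a single exon in the reference annotation. Promoter choice involves CTCF, cohesin and DNA methylation. A clone in which such a choice is inherited shows it in bulk RNA, and the comparison of clones asks which genes of the cluster are used, from which parental chromosome, and whether this differs between clones.

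The astrocyte libraries held 78257443 to 93963293 counted reads, the poly(A) NPC libraries 69925081 to 105892734 and the Ch libraries 20871111 to 30920672, of which 18.9% to 34.8% were allele-specific. Gfap and Aqp4, astrocyte markers, reached 61.9 to 2092 and 16.1 to 124 CPM in the astrocyte clones and at most 3.45 and 3.56 CPM in the NPC clones. Nes, a progenitor marker, was at 59.3 to 122 CPM in astrocytes and at 657 to 1671 CPM in NPCs. Not all markers separated the cell types: Pax6, also a progenitor marker, was at 31.1 to 71.6 CPM in astrocytes and 13.1 to 39.6 CPM in NPCs, and the astrocyte marker Slc1a3 at 548 to 2670 and 584 to 1379 CPM. Summed, the 5 progenitor markers found were at 1191 to 2093 CPM in astrocytes and 3539 to 5164 CPM in NPCs, and the 6 astrocyte markers at 1327 to 4643 and 920 to 1673 CPM. The 6 neuron markers found summed to 12.8 to 41.8 CPM in astrocytes and 14.7 to 34.8 CPM in NPCs, and the 3 fibroblast markers to 2.71 to 203 CPM in astrocytes and 0.36 to 11.8 CPM in NPCs. Their part in the results was not tested. Chromosome 18 was unequal in 2 clones. In mG2, the median percent Cast of 269 chromosome 18 genes was 0.0712, against 48.8 to 50 in the 10 clones other than G4, and in G4 it was 65.2. Relative to the other clones of its group and to the other autosomes, the reads of chromosome 18 were 0.54 higher in G4 and 0.02 higher in mG2 on the log2 scale. The allelic ratios below leave mG2 out unless it is named, and results that rest on G4 are also given without it.

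All clones transcribed most of the beta cluster at once. Pcdhb1 was the exception, with 0 to 0.142 CPM and in no clone 20 allele-specific reads. Of the other 21 genes, 18 to 21 reached 1 CPM in every clone, and 2 to 19 reached 10 CPM. The summed level of the 22 genes was 466 ± 248 CPM in the astrocyte clones (SD, n = 5), from 242 in C2 to 862 in G4, and 367 ± 130 (SD, n = 4) without G4. It was 339 ± 90 CPM in the poly(A) NPC clones (SD, n = 3) and 175 ± 34.8 in the Ch clones (SD, n = 4). In bulk RNA, a gene used by few cells of a clone and a gene weakly used by all cells cannot be told apart.

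Which gene led the cluster differed from clone to clone. Per kilobase of gene span, 6 genes took the first place in the 12 clones. Pcdhb9 led in the astrocyte clones 129 and G4, at 25.5 and 44.7 CPM per kilobase, Pcdhb22 in C2 and mC3, at 8.91 and 20.5, and Pcdhb11 in mE6, at 12.4. Among the NPC clones, Pcdhb10 led in F5, mG2 and Ch3, Pcdhb11 in mG6 and Ch7, Pcdhb6 in Ch5 and Pcdhb5 in Ch8. The leading gene made up 11% to 22% of the summed level per kilobase and the first 5 genes 41.9% to 67.0%, so no clone was dominated by a single Pcdhb gene.

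**Figure D1:**
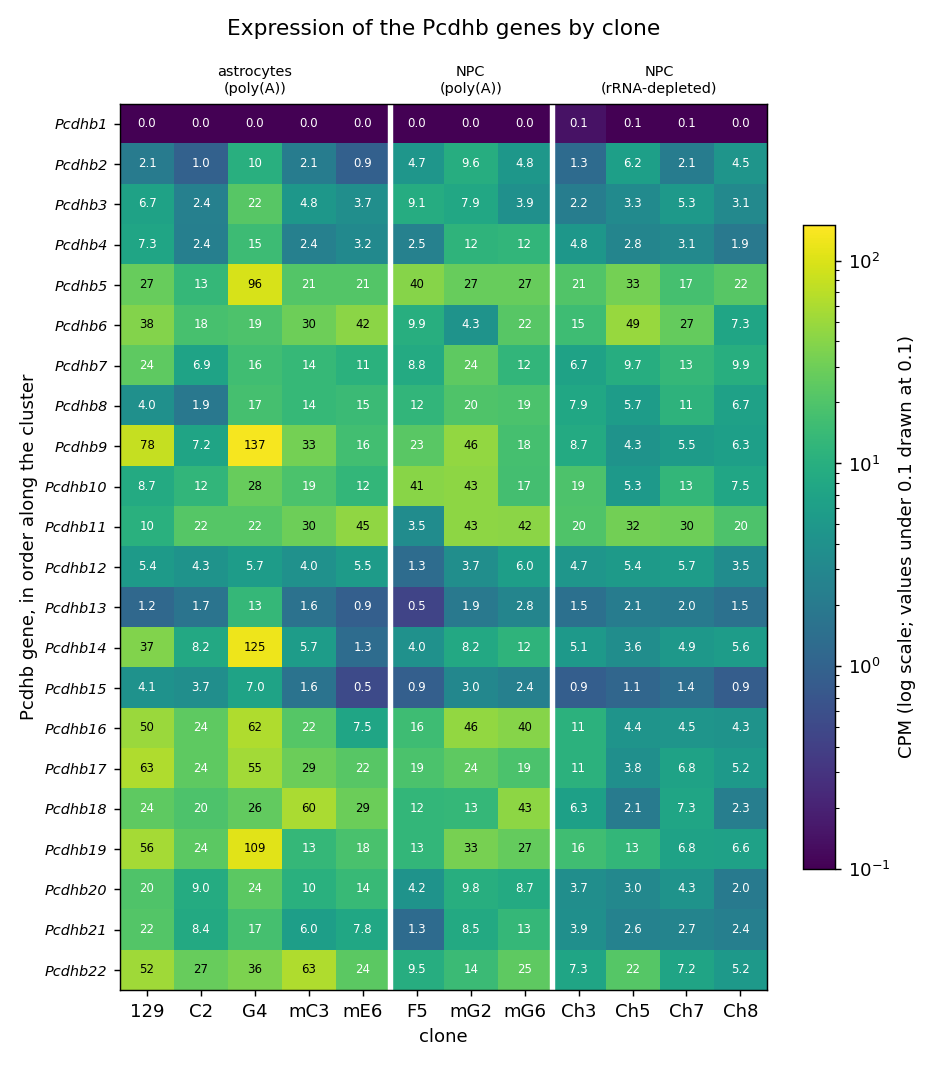
Level of the 22 Pcdhb genes (rows, in order along the cluster) in the 12 clones (columns, grouped by cell type and preparation), in CPM on a logarithmic colour scale, with the value in each cell. Pcdhb1 is near 0 in every clone, and the genes with the highest levels change from clone to clone, as with Pcdhb14, at 125 CPM in G4 and 1.32 CPM in mE6.

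Pcdhb9, Pcdhb5 and Pcdhb19 had the highest mean levels over the 12 clones, at 31.9, 30.5 and 27.9 CPM. This order rests on G4, without which the highest means were those of Pcdhb11, at 26.9 CPM, Pcdhb5, at 24.5, and Pcdhb6, at 23.9, and Pcdhb9 and Pcdhb19 were at 22.4 and 20.6 CPM. Pcdhb9 was at 77.9 CPM in clone 129, 7.21 in C2, 137 in G4, 33.0 in mC3 and 16.4 in mE6. In the poly(A) NPC clones it was at 23.4 CPM in F5, 46.0 in mG2 and 17.5 in mG6, and in the Ch clones at 4.34 to 8.73 CPM. Pcdhb9 was thus high in 129 and G4 and lowest among the astrocyte clones in C2. Pcdhb5 was the more even gene, at 27.1, 13.2, 96.5, 20.9 and 21 CPM in the astrocyte clones 129, C2, G4, mC3 and mE6. It was at 39.8 CPM in F5, 27.4 in mG2 and 27.2 in mG6, and at 20.6, 32.6, 17.4 and 22.4 CPM in Ch3, Ch5, Ch7 and Ch8. Apart from G4, no clone stood far from the others. Pcdhb19 was at 55.8, 24.1, 109, 13.1 and 18.3 CPM in the astrocyte clones in the same order. Its levels were 12.6 CPM in F5, 33.3 in mG2 and 26.9 in mG6, and 6.64 to 16.1 CPM in the Ch clones.

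The Pcdhb genes differed more between clones than most genes did. Among genes with at least 1 CPM in every astrocyte clone, the highest clone exceeded the lowest by a median of 3.92-fold for 18 Pcdhb genes and 1.91-fold for all 11744 genes, and 17 of the 18 differed by more than 2-fold, against 44.9% of all genes. Without G4 the medians were 3.09-fold and 1.77-fold. In the poly(A) NPC clones the medians were 2.65-fold for 19 Pcdhb genes and 1.48-fold for all genes, with 16 of the 19 above 2-fold against 19.7%. In the Ch clones they were 2.25-fold for 20 Pcdhb genes and 1.26-fold for all genes, with 12 of the 20 above 2-fold against 7.55%. Taf7, which codes for a subunit of the general transcription factor TFIID and lies between the beta and gamma clusters, was at 16.9 to 28.4 CPM in the astrocyte clones and 9.69 to 13.3 CPM in the Ch clones. Over 10 genes around the beta cluster, Taf7 among them, the median was 1.6-fold in the astrocyte clones and 1.25-fold in the Ch clones. The widest of them reached 3.62-fold in the astrocyte clones, in Pcdh1, at 24 to 87 CPM, and 1.47-fold in the Ch clones. With 1 library per clone in the poly(A) groups, a difference between those clones has no replicate check.

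The Ch clones, with 2 libraries each, allowed a test of the differences between clones against the spread between libraries. With edgeR's quasi-likelihood test, the level of 17 of the 23 protocadherins tested differed between the 4 clones (Benjamini-Hochberg adjusted p under 0.05 over 17095 genes), where 16.6% of all genes did. These were 16 of the 21 Pcdhb genes tested and Pcdhgc5. Pcdhb12, Pcdhb13, Pcdhb14, Pcdhb15, Pcdhb21 and Pcdha11 did not pass. Nothing in the labels says that the 2 libraries of a clone came from separate cultures, so the p-values measure only the spread between libraries.

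Pcdhb6 had the smallest p of the family. Its level was 15.3 and 15.4 CPM in the libraries of Ch3, 50.3 and 46.7 in Ch5, 26.0 and 27.9 in Ch7 and 6.93 and 7.65 in Ch8. The 4 clones did not overlap, and Ch5 exceeded Ch8 by 6.65-fold (adjusted p = 4.59e-07, edgeR). Pcdhb10 was at 18.3 and 20.3 CPM in Ch3, 5.50 and 5.03 in Ch5, 12.6 and 13.1 in Ch7 and 7.01 and 8.09 in Ch8. Here Ch3 was highest and Ch5 lowest, with a 3.67-fold difference (adjusted p = 1.12e-05, edgeR). Pcdhb22 was at 7.04 and 7.48 CPM in Ch3, 23.1 and 20 in Ch5, 7.60 and 6.80 in Ch7 and 5.70 and 4.61 in Ch8. Ch5 was far above the other clones, 4.18-fold above Ch8 (adjusted p = 5.75e-05, edgeR). Both libraries of Ch8 were below those of Ch3 and Ch7, which overlapped. Pcdhb2 was at 1.58 and 1.09 CPM in Ch3, 6.38 and 6.09 in Ch5, 2.07 and 2.23 in Ch7 and 4.51 and 4.49 in Ch8. Its order ran from Ch5 through Ch8 and Ch7 to Ch3, a 4.67-fold span (adjusted p = 0.000411, edgeR). Pcdhb19 was at 16.1 and 16.0 CPM in Ch3, 14.3 and 11.1 in Ch5, 6.53 and 7.02 in Ch7 and 7.12 and 6.13 in Ch8. Ch3 and Ch5 were both above Ch7 and Ch8, and the highest and lowest clone means differed 2.42-fold (adjusted p = 0.000692, edgeR). Each of these 5 calls was kept in all 12 alternative fits.

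The allelic ratio of the Pcdhb genes varied from gene to gene within a clone and from clone to clone within a gene, while the cluster as a whole stayed close to balance. Summed over the cluster, the Cast share was 44.9% to 57.1% in the 10 clones other than G4 and mG2, on 3484 to 27313 allele-specific reads per clone. Single genes in the same 10 clones ran from 7.84% to 91.4%, and 103 of their 210 values lay between 35% and 65%, the range called biallelic. Of 11 genes around the cluster (5 before it, Taf7 and the 5 that follow), 98 of 110 values lay in this range, and the other 12 belonged to Dnd1, with 5, and Gnpda1, with 7. The SD over the 10 clones was 1.21 to 8.01 points for the flanking genes and 10.5 to 26.8 points for the Pcdhb genes. Taf7 stayed at 44.7% to 50.1%. Dnd1 ran from 51.9% to 78.8% and Gnpda1 from 22% to 47.1%.

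**Figure D2:**
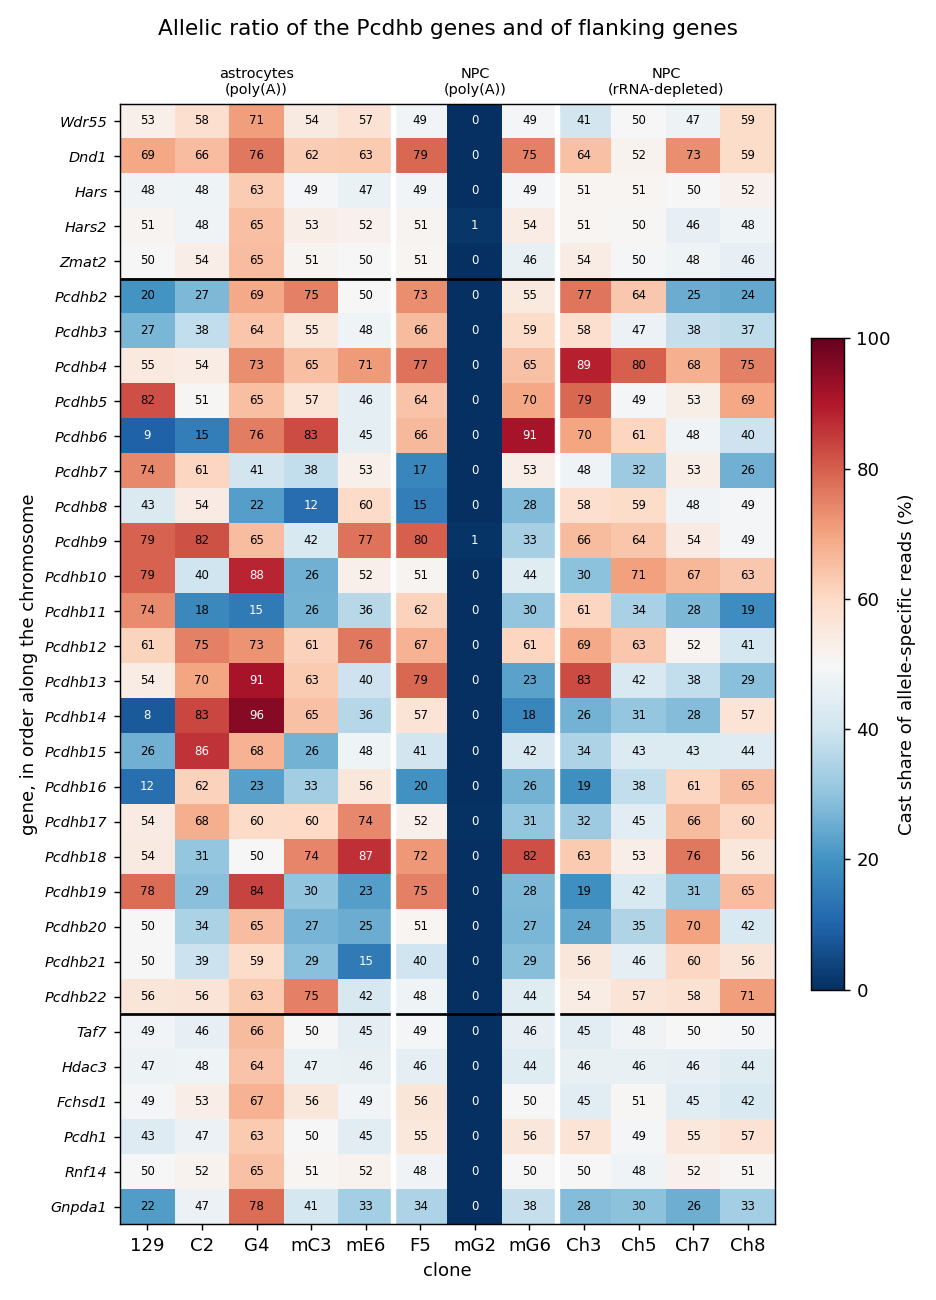
Percent Cast of 21 Pcdhb genes (between the black lines) and of 11 flanking genes (above and below) in the 12 clones, for at least 20 allele-specific reads; red is Cast, blue is 129, white is an equal share. The flanking genes are pale in the 10 clones with a balanced chromosome 18, except Dnd1 and Gnpda1. The Pcdhb genes run from red through pale to blue there, with 103 of 210 values between 35% and 65%. The column of mG2 is at 0% to 1.27% throughout.

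Partial imbalance was more frequent among protocadherins than over all genes, and how often they were monoallelic against other genes depended on the limits. Of 245 ratios of the family in 11 clones, 15 were monoallelic (under 15% or over 85% Cast), or 6.12%, against 5.47% of the 111592 ratios of autosomal genes. With limits of 10% and 90% the shares were 2.45% and 4.33%, and with 20% and 80% they were 13.1% and 6.83%. The biased classes, from 15% to 35% and from 65% to 85%, held 112 ratios, or 45.7%, against 12.6%. Of 23 members with at least 4 ratios, 16 were under 35% in at least 1 clone and over 65% in another, against 8.88% of 10725 genes. Only Pcdhb6 and Pcdhb14 were under 15% in a clone and over 85% in another, which 1.91% of genes were. Some autosomal protocadherins outside the clusters also varied widely over these 11 clones. Pcdh17 ran from 0.712% in F5 to 68.3% in G4, Pcdh9 from 50.5% in Ch7 to 99.3% in clone 129, and Pcdh10 from 60.7% in clone 129 to 97.2% in F5. Others varied less, with Pcdh7 at 42.2% to 55.9%, Pcdh1 at 43.4% to 62.9% and Pcdh18 at 25.3% to 51.4%. Every fully measured Pcdhb gene had an SD over the 11 clones of at least 10.3 points. The median was 16.6 points against 4.49 for 8622 autosomal genes, and 14 of 21 reached 15 points, against 8.95% of these genes. Low read numbers widen such an SD. With at least 50 reads in each clone, 10 of 15 Pcdhb genes reached 15 points, with a median of 16.4, against 606 of 7869 genes, with a median of 4.11. Without G4, 13 of 21 Pcdhb genes did, against 751 of 8677 genes.

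**Figure D3:**
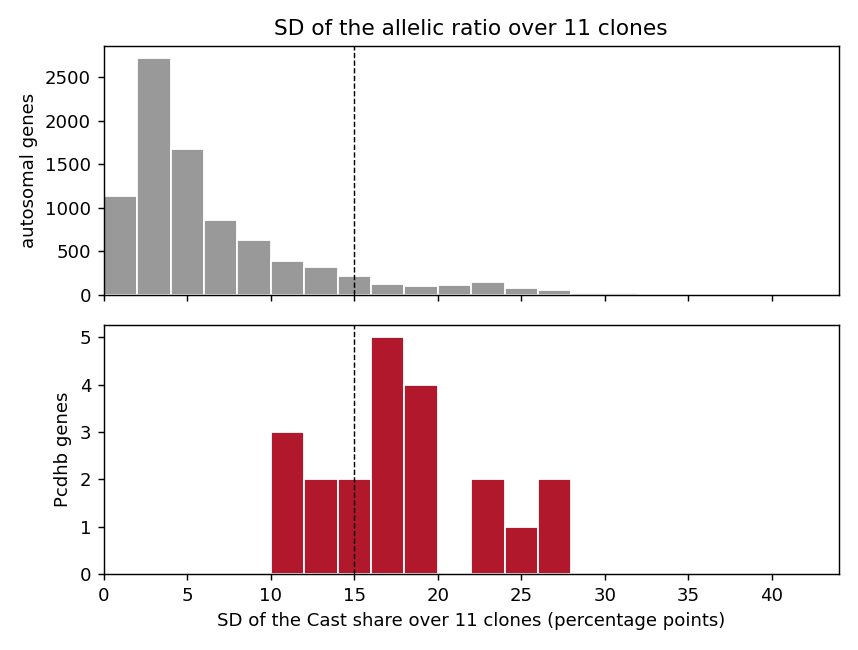
Number of autosomal genes (top) and of Pcdhb genes (bottom) by the SD of percent Cast over the 11 clones other than mG2, in bins of 2 percentage points, with a dashed line at 15. Most autosomal genes lie under 8 points, and the 21 Pcdhb genes lie between 10.3 and 27.8 points.

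Pcdhb14 had the widest range of all members. Its percent Cast was 7.84 in clone 129 (95% Wilson interval 6.70 to 9.15), 83.3 in C2, 95.6 in G4 (95 to 96.1), 64.8 in mC3 and 35.9 in mE6. In the NPC clones it was 56.7 in F5, 17.5 in mG6, 26.5 in Ch3, 30.8 in Ch5, 28.4 in Ch7 and 56.8 in Ch8. The astrocyte clones 129 and G4 thus used opposite alleles of the gene, and both expressed it well, at 37.0 and 125 CPM. The reads assigned to the 129 allele were 19.3 CPM in clone 129 and 0.776 in C2, and those of the Cast allele 66.0 CPM in G4 and 1.64 in clone 129. The intervals cover counting error only, and the Cast share of chromosome 18 in G4, 65.2%, was far from the 95.6% of Pcdhb14.

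Pcdhb6 was the other gene with opposite alleles. Its percent Cast was 9.43 in clone 129 (8.28 to 10.7), 15.4 in C2, 75.7 in G4, 82.7 in mC3 and 45.4 in mE6. It was 66.3 in F5 and 91.4 in mG6 (89.6 to 92.9), and 69.9, 60.8, 48.4 and 39.8 in Ch3, Ch5, Ch7 and Ch8. All Pcdhb6 values over 85% or under 15% came from clone 129 and from mG6, which differ in cell type. Its 129 allele gave 22.3 CPM in clone 129 and 1.13 in mG6, and its Cast allele 2.33 and 12. In mE6 both alleles were high, at 14.9 and 12.4 CPM, and in Ch8 both were low, at 2.57 and 1.70.

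Pcdhb11 was under 50% Cast in 8 of 11 clones. Its percent Cast was 73.5 in clone 129, 17.9 in C2, 14.6 in G4, 26.3 in mC3 and 36.2 in mE6, and 61.5 in F5 and 30.3 in mG6. In Ch3, Ch5, Ch7 and Ch8 it was 60.8, 33.8, 27.7 and 18.8. The 129 allele gave 12.6 to 19.8 CPM in the 4 astrocyte clones under 50%, and 1.96 in clone 129. The Cast allele gave more than the 129 allele in clone 129, at 5.44 CPM, in F5, at 1.28 against 0.803 CPM, and in Ch3, at 7.52 against 4.85 CPM. Like levels could come with different ratios. Ch3 and Ch8 were at 20.1 and 19.7 CPM with 60.8% and 18.8% Cast, and mE6, with the highest level, 44.7 CPM, also had the highest Cast level, 11.2 CPM. A lean to 1 strain shared by many clones was also seen in Pcdhb4, which was over 65% Cast in 8 of 11 clones and under 35% in none.

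**Figure D4:**
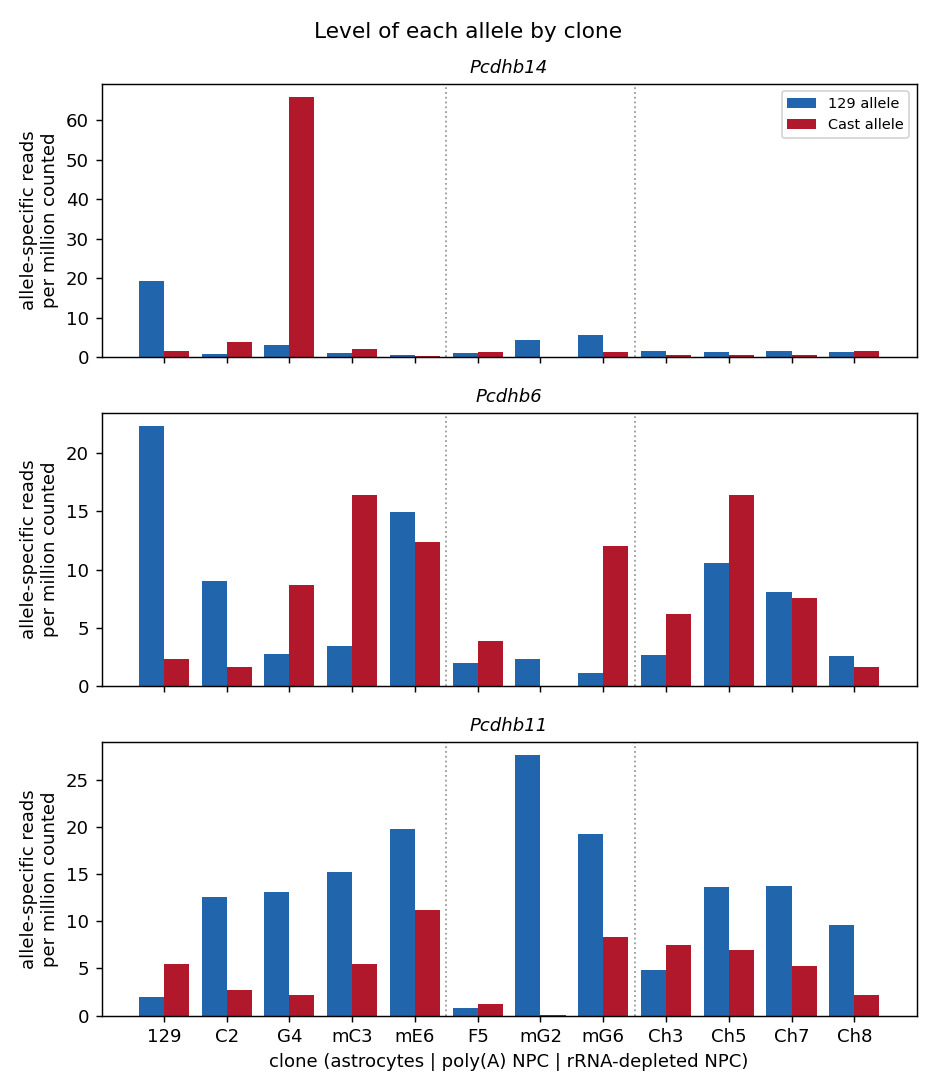
Reads assigned to the 129 allele (blue) and to the Cast allele (red), in CPM of all counted reads, for Pcdhb14, Pcdhb6 and Pcdhb11 in the 12 clones; dotted lines separate astrocytes, poly(A) NPCs and Ch NPCs, and bars start at 0. The tallest bars of Pcdhb14 are the 129 allele in clone 129, at 19.3, and the Cast allele in G4, at 66.0, and mG2 has bars of the 129 allele alone.

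The genes with the highest levels or the smallest p between Ch clones also varied in ratio among the poly(A) clones, some to both sides and some to 1 side. The percent Cast of Pcdhb9 was 79.3, 81.8, 65.3, 42.5 and 77.1 in the astrocyte clones 129, C2, G4, mC3 and mE6, 79.7 in F5 and 33.4 in mG6, and 65.9, 63.9, 54.1 and 49.1 in Ch3, Ch5, Ch7 and Ch8. It was over 50% in all of these but mC3, mG6 and Ch8. Pcdhb19 was at 77.9, 29.1, 83.8, 30.2 and 22.6 in the same astrocyte clones, 75.2 in F5 and 27.5 in mG6. No value of Pcdhb19 in these 7 clones lay between 35% and 65%, and its highest levels, 55.8 and 109 CPM, were in 129 and G4, which leaned to the Cast allele. Its 129 allele was not low there, at 8.78 CPM in clone 129 and 12.1 CPM in G4, against 6.54 to 11.4 CPM in the other astrocyte clones. Pcdhb5 was at 82.2, 50.6, 64.9, 56.7 and 45.5, and at 64.1 in F5 and 69.5 in mG6, and was under 35% in no clone but mG2. Pcdhb10 was at 79.4, 40.2, 88.1, 26.1 and 52.4, and at 51.4 in F5 and 43.9 in mG6. Pcdhb16 was at 12.2, 61.7, 22.8, 32.6 and 55.6, and at 19.6 in F5 and 26.4 in mG6, so that clone 129 was monoallelic for 129 here and on the Cast side for Pcdhb19 and Pcdhb10. Pcdhb2, a weakly expressed gene, ran from 20% in clone 129 to 76.9% in Ch3, and Pcdhb22 from 41.9% in mE6 to 75.3% in mC3.

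The levels of these genes in the poly(A) clones changed rank as in the Ch clones. Pcdhb10 was at 8.74, 12.2, 27.6, 18.7 and 12.5 CPM in the astrocyte clones 129, C2, G4, mC3 and mE6, and at 40.8, 43.2 and 17.1 CPM in F5, mG2 and mG6. Pcdhb16 was at 50.4, 24.3, 62 and 21.7 CPM in 129, C2, G4 and mC3 but 7.46 CPM in mE6, and at 15.6, 45.6 and 40 CPM in the NPC clones. In mE6 the highest levels were instead those of Pcdhb11, at 44.7 CPM, and Pcdhb6, at 42.4 CPM. Pcdhb6 was at 38.1, 17.8, 19.2 and 29.9 CPM in the other 4 astrocyte clones and at 9.91, 4.26 and 22.2 CPM in the NPC clones.

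Both alleles contributed to the differences in level. In the astrocyte clones, the CPM of the Cast allele differed between the highest and lowest clone by a median of 9.21-fold over 21 Pcdhb genes, and those of the 129 allele by 6.21-fold. Without G4 the medians were 4.66-fold and 3.97-fold. In the Ch clones they were 2.48-fold for Cast and 2.92-fold for 129, with the widest spans in Pcdhb6, 9.65-fold for Cast, and Pcdhb2, 14.8-fold for 129. The span of Pcdhb2 rests on 9 reads of the 129 allele in Ch3, against 140 in Ch8. No minimum of reads was set for these folds, and they were not computed for all genes.

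Neighbouring Pcdhb genes could lean to opposite chromosomes. Over 11 clones there were 220 pairs of adjacent genes, of which 21 had 1 gene under 35% and the other over 65% Cast, and 42 had both genes on the same side. Pairs that are not adjacent were not counted, so these numbers do not say whether neighbours differ from other pairs. The opposite pairs involved 12 of the gene pairs and every clone but Ch8. In clone 129, Pcdhb5 was at 82.2%, Pcdhb6 at 9.43% and Pcdhb7 at 73.9%, with 9946 and 4263 bases between them. In G4, Pcdhb10 was at 88.1%, Pcdhb11 at 14.6% and Pcdhb12 at 72.6%. The pair Pcdhb17 and Pcdhb18, 1174 bases apart and the closest in the cluster, leaned one way in C2, at 68.2% and 30.8%, and the other way in mG6, at 30.7% and 82.1%. Pcdhb18 and Pcdhb19 were opposite in mC3, mE6, Ch7 and mG6, each time with Pcdhb18 on the Cast side. Pcdhb genes resemble each other in sequence, and how the authors' counting split reads between like genes was not examined.

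In the Ch clones, the allelic ratio was also tested between clones. With an edgeR quasi-likelihood test on the Cast and 129 counts of the 8 libraries, 13 of 23 members differed between the 4 clones (adjusted p under 0.05 over 9746 autosomal genes), against 9.40% of all genes. These were 12 Pcdhb genes and Pcdha11. A quasi-binomial regression, in which each gene has its own spread, called 6 of 23, namely Pcdhb2, Pcdhb5, Pcdhb11, Pcdhb16, Pcdhb19 and Pcdha11, against 4.89% of all genes. Of the 17 members called by level and the 13 called by ratio, 10 were the same, and 3 of 23 passed neither test. Another 7 were called by level only and 3 by ratio only. Whether this overlap exceeds that of unrelated calls was not tested, and it was not counted over all genes.

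Pcdhb11 had the smallest p, with 57.8% and 63.3% Cast in the libraries of Ch3, 32.9% and 34.8% in Ch5, 28.2% and 27.1% in Ch7 and 17.5% and 20.3% in Ch8. The clones did not overlap, and Ch3 and Ch8 differed by 41.6 points (adjusted p = 1.15e-37, edgeR). Pcdhb5 was at 77.3% and 80% in Ch3, 47.6% and 51.0% in Ch5, 50.5% and 55.1% in Ch7 and 71.3% and 67.4% in Ch8 (adjusted p = 3.24e-21, edgeR). Ch3 and Ch8 were on the Cast side, and Ch5 and Ch7 near balance with overlapping libraries. Pcdhb19 was at 18.8% and 19.7% in Ch3, 42.7% and 41.8% in Ch5, 31.7% and 30.1% in Ch7 and 63.0% and 68.8% in Ch8 (adjusted p = 7.51e-20, edgeR). Ch8 was highest and Ch3 lowest, whereas Pcdhb11 was highest in Ch3 and lowest in Ch8. Pcdhb10 was at 34.8% and 25.9% in Ch3, 78.1% and 60.0% in Ch5, 67.5% and 65.8% in Ch7 and 65.1% and 61.2% in Ch8 (adjusted p = 6.71e-15, edgeR). Only Ch3 stood apart, and this call was lost with the quasi-binomial regression, whose adjusted p of 0.0982 was the highest of 13 alternatives, the lowest being 3.45e-15 (edgeR). Pcdhb16 was at 20.4% and 18.5% in Ch3, 39.7% and 34.8% in Ch5, 60.3% and 61.4% in Ch7 and 63.6% and 67.3% in Ch8 (adjusted p = 4.92e-12, edgeR). Ch3 was lowest and Ch7 and Ch8 highest. The quasi-binomial regression kept the other 4 calls with much larger adjusted p, at 0.00759 for Pcdhb11, 0.0256 for Pcdhb5, 0.00274 for Pcdhb19 and 0.00237 for Pcdhb16.

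**Figure D5:**
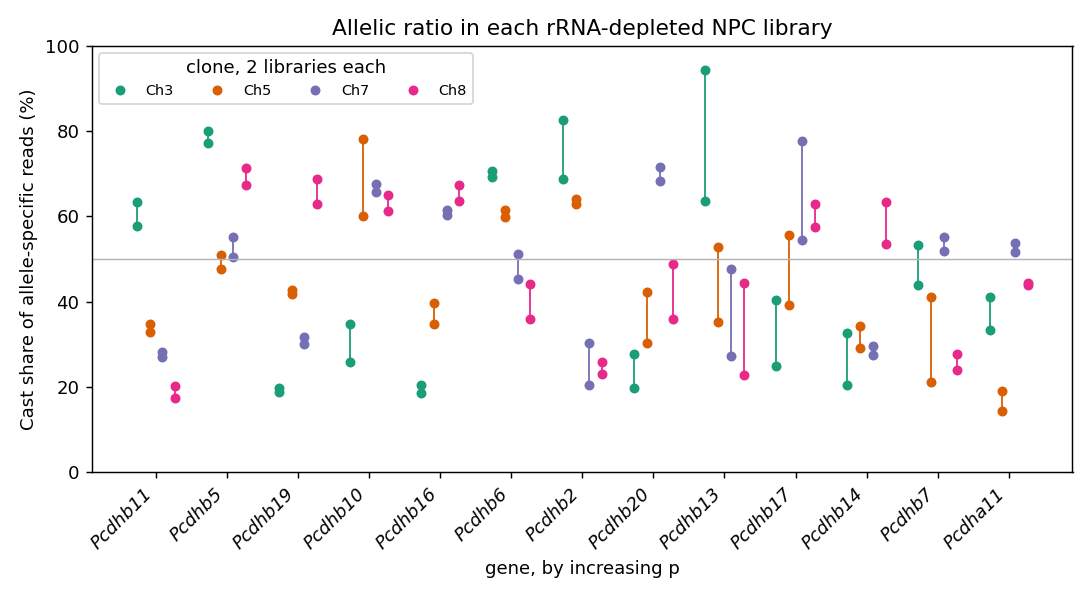
Percent Cast of the 13 members called between the Ch clones, ordered by p, in each of the 2 libraries per clone (points joined by a line; colours are clones). The libraries of a clone lie close together for Pcdhb11, Pcdhb19 and Pcdhb16 while the clones are apart, and in Pcdhb13 they differ by 21.1 points in the median clone.

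The 2 libraries of a clone were compared gene by gene. None of 83 comparisons of a member between the 2 libraries of a clone passed Fisher's exact test (adjusted p under 0.05), where 0.236% of 35243 comparisons over all genes did. Of the 83, 8 had an unadjusted p under 0.05, and the same share over all genes was not counted. The libraries differed by a median of 6.94 points for the members and 3.43 points for all genes, and by up to 30.8 points, in Pcdhb13 in Ch3, at 63.6% and 94.4%. The SD of the members' differences was 10.9 points. Counting error alone, taken for an equal share of both alleles, where it is largest, gives 9.09 points at these read numbers. A p that misses the threshold at this depth does not show that the libraries were alike.

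Clone mG2 showed the cluster expressed from 129 chromosomes alone. Of its 15793 allele-specific Pcdhb reads, 34 were assigned to Cast, or 0.215%, and single genes reached at most 0.897%, in Pcdhb9. Its summed Pcdhb level, 403 CPM, was the highest of the 3 poly(A) NPC clones, next to 377 in mG6 and 236 in F5, and 21 genes reached 1 CPM. In G4, where Cast reads were in excess over chromosome 18, the Pcdhb genes still ran from 14.6% in Pcdhb11 to 95.6% in Pcdhb14. Their median was 65.3%, next to 65.2% for chromosome 18, and 8 of 21 lay between 65% and 85%.

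The identifiers under the symbols Pcdha11 and Pcdhgc5 are given with a caution. In the older annotation behind the name table each spans its cluster with 10 transcripts, and the deposited tables use later versions of both, so their reads may not be those of the named exon. Pcdha11 was at 0 to 0.325 CPM in the poly(A) libraries except in G4, at 5.61 CPM and 3.18% Cast, and at 4.03 to 6.62 CPM in the Ch clones. In the latter its percent Cast was 39.2 in Ch3, 17.3 in Ch5, 52.9 in Ch7 and 44.1 in Ch8 (adjusted p = 0.00343, edgeR). Pcdhgc5 was at 0.521 to 4.70 CPM in the poly(A) libraries and 4.52 to 14.2 CPM in the Ch clones, with 12 and 15.8 CPM in the libraries of Ch3 and 4.96 and 4.05 CPM in those of Ch8 (adjusted p = 0.000765, edgeR). In both, the higher levels of the Ch clones cannot be told apart from their preparation.

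Between astrocytes and poly(A) NPCs, the spread between clones exceeded most differences between cell types. Of 23 members tested with edgeR, 1 was called, higher in astrocytes, where 25.5% of 18192 genes were called, 13.0% as higher and 12.6% as lower. The median log2 fold change was 0.50 for the members, 16 of which were positive, and 0.08 for all genes. Pcdhb22 was at 52.5, 27.3, 35.7, 62.7 and 24.1 CPM in the astrocyte clones 129, C2, G4, mC3 and mE6, and at 9.50, 14.5 and 24.7 CPM in F5, mG2 and mG6. The groups overlapped by a single pair of clones, and the log2 fold change was 1.35 (SE 0.414, adjusted p = 0.0444, edgeR). The call was lost when 129, G4, mC3, F5 or mG2 was left out, and over 13 alternatives the adjusted p ran from 0.00925 to 0.196. Without G4, Pcdhb2 and Pcdhb10 were called lower in astrocytes, with log2 fold changes of -2.05 (SE 0.447, adjusted p = 0.0188, edgeR) and -1.35 (SE 0.391, adjusted p = 0.0457, edgeR). Over all genes, 3897 of 17915 were called in that fit, in either direction. Without mG6, Pcdhb6 was called higher, at 2.04 (SE 0.517, adjusted p = 0.0373, edgeR), where 3030 of 18787 genes were called. Pcdhb2 was at 10.1 CPM in G4 and 0.947 to 2.15 CPM in the other 4 astrocyte clones, against 4.66 to 9.62 CPM in the NPC clones.

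Most genes known to act on the clusters or with their proteins were not called. Of 20 regulators and signalling partners, 1 of 18 tested differed in level between the Ch clones, the kinase gene Ptk2 (adjusted p = 0.0243, edgeR), against 16.6% of all genes. Of 19 tested, 3 were lower in astrocytes than in poly(A) NPCs, a share near the 12.6% of all genes. These were Dnmt1, the maintenance DNA methyltransferase, with a log2 fold change of -1.40 (SE 0.283), the cohesin subunit gene Smc1a, at -1.21 (SE 0.259), and Ptk2, at -1.02 (SE 0.258). Ctcf was at 109 to 118 CPM and Rad21 at 171 to 218 CPM in the Ch clones, and neither was called there. By allelic ratio, 1 of 15 differed, against 9.40% of all genes, the de novo methyltransferase gene Dnmt3a, at 47.8% Cast in Ch3 and 99.7% to 99.9% in Ch5, Ch7 and Ch8, while its level was 158 to 172 CPM. Of 10 protocadherins outside the clusters, 6 of 8 tested differed in level between the Ch clones (16.6% of all genes), namely Pcdh7, Pcdh9, Pcdh10, Pcdh11x, Pcdh17 and Pcdh19. Pcdh10 was at 7.43 CPM in Ch8 and 45.2 CPM in Ch7 (adjusted p = 2.85e-06, edgeR). Pcdh10 and Pcdh17 also differed in allelic ratio, 2 of the 6 tested (9.40% of all genes), and Pcdh7 was called higher in astrocytes, 1 of 9 (13.0% of all genes), with a log2 fold change of 1.41 (SE 0.303).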

How the data were processed

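The authors depleted ribosomal RNA or enriched poly(A) RNA, prepared stranded libraries, masked the mouse genome (GRCm38/mm10) at SNPs between the parental strains, aligned reads with TopHat2 (2.1.0) and Bowtie2, assigned them to an allele with SNPsplit and counted read pairs per gene by strand with featureCounts (1.5.1). The annotation version is not given in the sources used here. The deposited counts are Cast, 129 and all reads for 50600 genes per library, not normalized, and these were analysed as they are. The authors also deposited the Cast share as a fraction for at least 10 reads, which was recomputed from the counts and not used.

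Of the identifiers, 32722 had a symbol in the name table and 23346 of these a position in RefSeq (GRCm38.p6), matched by symbol. Levels per kilobase use the RefSeq gene span. The members and gene lists were chosen with earlier results of these data known. Counts of both libraries were added up for the level and ratio of a Ch clone, and the error of a ratio is a 95% Wilson interval, which covers counting error only.

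Tests used edgeR 4.0.16 (quasi-likelihood, TMM, its expression filter) in R 4.3.3 on all genes, with Benjamini-Hochberg adjustment at 0.05, Fisher's exact test (two-sided, scipy 1.17.1), and DESeq2 1.42.0 as an alternative. For the allelic ratio, each library had its own term and the Cast to 129 difference was tested between clones, for autosomal genes that reached 20 such reads in 2 or more clones. Tested on simulated data with 200 genes changed, the level and ratio tests between Ch clones recovered 195 of 199 and 172 of 200. In the same data the level test also called 10 unchanged genes and the ratio test 13. The set difference was 2 on the log2 scale, and recovery at smaller differences was not tested.

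Named were the 3 members of each subgroup with the highest mean CPM, those under 15% in 1 clone and over 85% in another, the 5 with the smallest p in each test between Ch clones, those called between astrocytes and NPCs, and called genes of the 2 lists. Pcdhb4, Pcdhb12, Pcdhb17 and Pcdhb18, in the sentences on a shared lean and on adjacent pairs, and Pcdhb2 and Pcdhb10 between astrocytes and NPCs, Ctcf and Rad21 were named after their values were seen. Alternatives were other tools, filters, size factors, read minimums and limits of the allelic classes, the replicate block, sex as a covariate, and leaving out libraries or clones. Adding mG2 to the allelic classes, the 2 alternatives of the SD and mean levels without G4 were chosen after seeing the data.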

Additional observations from a re-analysis of the deposited data

Results flagged for a closer look

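In the 5 astrocyte clones and the 4 Ch clones, 96 sets of values were compared by Dixon's ratio, and 13 held a clone far from the others, where chance gives about 1 in 20. The sets share clones and a chromosome, so they are not independent, and the same count was not made over all genes. Clone G4 accounted for 8 of the 13, and the sets flagged in other clones were about as many as chance gives. Its levels stood above the other 4 astrocyte clones for Pcdha11, at 5.61 CPM, Pcdhb2, at 10.1 CPM, Pcdhb3, at 22.4 CPM, Pcdhb5, at 96.5 CPM, Pcdhb13, at 13.0 CPM, and Pcdhb14, at 125 CPM. Its median percent Cast of chromosome 18 was 65.2 next to 50 in the nearest clone, and its read dosage of that chromosome was 0.539 (log2) relative to the other autosomes, next to -0.0838. Pcdhb18 stood apart in mC3, at 59.6 CPM. Among the Ch clones, Pcdhb16 was high in Ch3, at 11 CPM, and Pcdhb22 in Ch5, at 21.6 CPM. The percent Cast of Pcdhb14 was high in Ch8, at 56.8, and that of Pcdhb15 low in Ch3, at 34.4. The latter rests on 32 reads, with a 95% Wilson interval of 20.4 to 51.7 that covers the nearest clone, at 43.1, and library values of 50% and 27.3%, and Pcdhb15 was not called between the Ch clones by ratio (adjusted p = 0.983, edgeR). The part of the unequal chromosome 18 in the levels of G4 was not tested.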

How the results depend on the processing

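Between the Ch clones, the number of members called by level was 14 to 18 in all alternatives, and the number called by ratio 11 to 13, except 6 with the quasi-binomial regression. The count over all genes moved by more than 1.5 times from 2834 to 4361 with no filter on levels and from 916 to 477 with the quasi-binomial regression. With 1 Ch library left out it was 1509 to 3244 by level. Between astrocytes and poly(A) NPCs, 2 members were called with DESeq2, 0 with no filter, 0 without mG2 and G4 together and 0 to 2 with 1 library left out. Over all genes, 6280 of 18192 were called there with DESeq2, 4019 of 30429 with no filter and 1501 of 18530 without mG2 and G4. The count was 2269 to 4849 with 1 library left out, against 4644. Monoallelic ratios of members numbered 6 with limits of 10% and 90%, below the share of all genes, 32 with limits of 20% and 80%, above it, 37 with mG2 added and 9 to 15 with 1 clone left out, 9 being without G4. Members with opposite alleles numbered 8 with mG2 added and 0 to 2 with 1 clone left out, 0 without clone 129 and 1 without G4 or mG6. Genes under 35% in a clone and over 65% in another fell from 952 to 597 over all genes with a minimum of 50 reads, where members stayed at 16. Other counts of members stayed within 1.5 times.

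The correlation of the deviations of same-numbered Ch libraries ran from -0.324 to 0.490 over 6 pairs of clones, on 11640 genes. Its sign was mixed, and a batch shared by some of the libraries was not tested. With the replicate block 17 members were called by level (3391 genes in all, against 2834 without it) and 13 by ratio (914 genes). The Ch libraries hold 28 to 1431 allele-specific Pcdhb reads per gene and clone, which limits their ratios, and each poly(A) clone has a single library.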
